A study of Homo sapiens with 12 samples.

Results

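The regions described here are the widest stretches of the genome of KBM-7 cells that carried H3K27me3, the trimethylated form of a lysine in the tail of histone H3. They were chosen by their own H3K27me3: overlapping or adjacent called intervals were joined, the joined pieces were merged over gaps of up to 3 kb, and merged domains of at least 200 kb on chromosomes 1 to 22 were kept. This left 808 of 22780 merged domains, or 3.55%. KBM-7 is an established human line from chronic myeloid leukaemia that is close to haploid; chromosome 8 and a stretch of chromosome 15 (61 to 90 Mb) are known to be present in 2 copies. All 12 samples are untreated KBM-7 cells: chromatin was crosslinked, sheared and precipitated once with an antibody to each of 9 modifications, and 3 inputs were sequenced beside them. With 1 library per mark, replicate error is unknown for every comparison and no test was run. Shares are followed by Wilson 95% intervals in parentheses, and these reflect the error of counting genes, regions or edges alone. The values are called intervals without read counts, so the depth of every library is unknown. The intervals deposited for H3K36me3 and for H4K16ac were identical (45695 of each), and they are named H3K36me3/H4K16ac below.

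H3K27me3 is laid down by Polycomb repressive complex PRC2, whose catalytic subunits are EZH1 and EZH2. It marks genes that are kept silent in a given cell type, many of them regulators of development or genes of other tissues. CpG-rich sequence recruits Polycomb complexes, and a subunit of PRC2 binds H3K27me3 itself, which lets the mark spread along chromatin. H3K36me3 and H3K79me2 accompany transcription through gene bodies, H3K4me3, H3K9ac and H3K27ac accompany active promoters, and H3K4me1 and H3K4me2 are found at promoters and enhancers.

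Markers of the labelled lineage were checked first. Of 9 genes of myeloid progenitors and leukaemia, CD34, GATA2, MYB, SPI1, LYL1 and RUNX1 had H3K4me3 within 1 kb of an end, KIT, LMO2 and CD33 did not, and 0 lay inside a wide domain. This share, 6 of 9, is near the 51.8% of all autosomal protein-coding genes with H3K4me3 at an end, so the count does not identify the lineage. Of 9 genes of other cell types, KRT8 had H3K4me3, and CDH1, which encodes epithelial cadherin, lay inside a domain of 250 kb.

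The promoters of 6 genes are shown as examples of sequence in the wide domains. They are the first 3 genes with H3K4me2 on the promoter window and the first 3 without it, going down the domains by width with 1 gene of each kind per domain. Each line gives the 250 bases before the start of transcription, from RefSeq (GRCh38), with every CG in capitals, since windows with H3K4me2 were more often CpG-rich than those without. All 6 windows also overlapped H3K27me3, and H3K4me3 was at 0 of them. RGMA, which encodes a repulsive guidance molecule of axons, lies at chr15:93089212-93089461 on the minus strand. SYCP2, a gene of the meiotic synaptonemal complex, lies at chr20:59933638-59933887 on the minus strand. ATP8A2, which encodes a phospholipid flippase of neurons, lies at chr13:25371724-25371973 on the plus strand. KCNK1, a potassium channel gene, lies at chr1:233613856-233614105 on the plus strand. GABRP, which encodes a subunit of the GABA-A receptor, lies at chr5:170783475-170783724 on the plus strand. SHISA2, an antagonist of WNT and FGF signalling, lies at chr13:26052017-26052266 on the minus strand.
RGMA: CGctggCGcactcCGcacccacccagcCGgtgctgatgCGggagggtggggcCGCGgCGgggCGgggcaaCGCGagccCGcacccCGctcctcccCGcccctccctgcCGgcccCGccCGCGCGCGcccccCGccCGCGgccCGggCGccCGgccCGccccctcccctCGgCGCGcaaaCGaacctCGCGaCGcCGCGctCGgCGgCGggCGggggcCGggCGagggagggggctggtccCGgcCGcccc
SYCP2: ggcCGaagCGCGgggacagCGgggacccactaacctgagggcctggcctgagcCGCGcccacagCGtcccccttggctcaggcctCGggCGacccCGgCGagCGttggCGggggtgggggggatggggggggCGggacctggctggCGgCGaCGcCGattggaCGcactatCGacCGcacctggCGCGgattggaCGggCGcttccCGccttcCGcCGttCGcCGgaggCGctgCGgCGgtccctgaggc
ATP8A2: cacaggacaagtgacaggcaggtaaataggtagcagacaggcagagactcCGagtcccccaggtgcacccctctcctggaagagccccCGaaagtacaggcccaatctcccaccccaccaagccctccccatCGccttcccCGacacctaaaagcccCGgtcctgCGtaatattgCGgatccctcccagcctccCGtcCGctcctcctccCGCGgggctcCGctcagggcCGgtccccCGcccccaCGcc
KCNK1: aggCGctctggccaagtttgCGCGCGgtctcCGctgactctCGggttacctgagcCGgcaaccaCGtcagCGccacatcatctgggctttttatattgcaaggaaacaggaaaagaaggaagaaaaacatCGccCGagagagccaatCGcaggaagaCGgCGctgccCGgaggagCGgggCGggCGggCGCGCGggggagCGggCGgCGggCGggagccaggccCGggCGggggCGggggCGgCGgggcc
GABRP: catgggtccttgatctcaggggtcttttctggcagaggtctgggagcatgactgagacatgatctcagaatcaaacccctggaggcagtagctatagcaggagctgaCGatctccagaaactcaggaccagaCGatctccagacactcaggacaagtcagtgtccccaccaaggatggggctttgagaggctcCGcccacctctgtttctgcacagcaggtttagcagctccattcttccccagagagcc
SHISA2: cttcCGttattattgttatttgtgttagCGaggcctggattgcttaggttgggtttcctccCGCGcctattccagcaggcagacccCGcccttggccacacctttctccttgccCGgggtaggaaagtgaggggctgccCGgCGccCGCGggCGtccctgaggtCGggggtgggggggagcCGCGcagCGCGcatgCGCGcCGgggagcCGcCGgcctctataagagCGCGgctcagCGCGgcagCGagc
The 3 promoters with H3K4me2 held 44, 33 and 15 CG pairs in these bases, in the order RGMA, SYCP2 and ATP8A2. Those without it held 30 (KCNK1), 3 (GABRP) and 26 (SHISA2). CpG-rich and CpG-poor promoters were thus both found without H3K4me2. By the criterion given further below, all of these windows but that of GABRP were CpG-rich, against 39.1% of the matched windows inside. The examples are therefore richer in CpG than most promoters inside.

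The wide domains were chains of closely spaced pieces. Their width ran from 200 to 1178 kb, with a median of 273 kb and quartiles of 226 and 348.5 kb. Of the 808, 303 were at least 300 kb wide, 59 at least 500 kb and 1 over 1000 kb. Called H3K27me3 intervals covered 94.1% of their total length, from 84.7% to 99.5% of single domains. The median domain had 23 gaps (2 to 107), and its longest uninterrupted piece had a median of 44500 bp. Without merging over gaps, 3 regions reached 200 kb, the longest of them 220 kb, and merging over gaps of up to 1 kb or 10 kb gave 335 or 1228 domains. Of the 20210 gaps, 69.8% were 500 bp long, the step of the grid on which the H3K27me3 intervals start. Across all autosomal H3K27me3 the number of gaps fell from 61031 at 500 bp to 530 at 3000 bp, and stood at 471 at 3500 bp and 397 at 10000 bp. Another mark lay in 1.97% of the gaps inside wide domains.

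Just above the limit of 200 kb lay the domains at ADCY5 (200 kb), SBSPON and C8orf89 (200 kb), CDH13 (200.5 kb) and APCDD1 (200.5 kb), and a domain of 200.5 kb on chromosome 20 without a protein-coding gene. Just below it lay 199.5 kb at NRG1, 199 kb at IRX6 and 3 domains without a gene. The limit therefore cuts through a continuous range of widths.

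Together the domains held 249.6 Mb, 9.51% of the 2624 Mb of usable autosomal sequence and 26.6% of all merged H3K27me3 sequence. Usable sequence runs from the first to the last interval of a chromosome without unmarked stretches of at least 1 Mb. Chromosome 15 had the highest share, with 45 domains over 19.5% of its sequence, followed by chromosomes 1 (13.6%) and 22 (13.6%). Chromosome 19, the chromosome richest in genes, had the lowest, with 8 domains over 3.65%. Within chromosome 15 the share was 11.9% below 61 Mb, 24.5% in the part known in 2 copies and 30.8% above 90 Mb. The high share of chromosome 15 was therefore not limited to the duplicated part. Chromosome 8, also in 2 copies, stood at 9.26%. Leaving out both 2-copy stretches, 741 domains covered 9.34% of the sequence left.

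**Figure D1:**
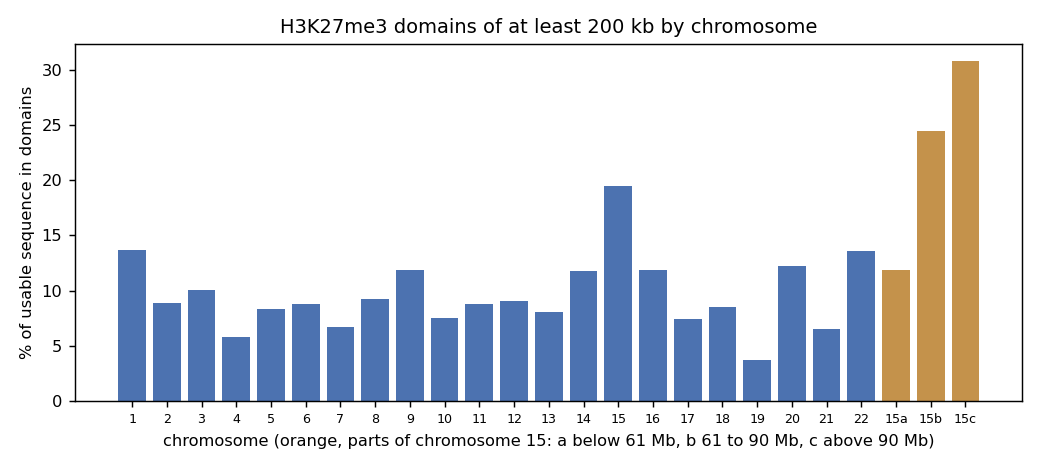
Share of usable sequence (percent) that lay in H3K27me3 domains of at least 200 kb, for each autosome (blue) and for 3 parts of chromosome 15 (orange). Chromosome 15 stands highest among the autosomes at 19.5% and chromosome 19 lowest at 3.65%, and within chromosome 15 the share is 11.9% below 61 Mb, 24.5% from 61 to 90 Mb and 30.8% above 90 Mb.

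The 10 widest domains each overlapped between 1 and 5 protein-coding genes. The widest, chr15:93056501-94234500, was 1178 kb long and overlapped 2 protein-coding genes at its ends. RGMA lay across the left edge with 60.6% of its span inside and ended 32.7 kb into the domain, and MCTP2 began 1174.9 kb from its start. The sequence between held 0 protein-coding genes. The domain at chr1:233387501-234371500 (984 kb) held KCNK1 and the transporter gene SLC35F3, which filled 42.7% of it. That at chr5:170479001-171385000 (906 kb) held KCNIP1, a regulator of potassium channels, GABRP, RANBP17 and TLX3, a homeobox gene of sensory and respiratory neurons. ZNF831, EDN3 (endothelin 3), PHACTR3, SYCP2 and FAM217B overlapped chr20:59046501-59934000 (887.5 kb).

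ATP8A2 filled 78.4% of chr13:25351501-26185000 (833.5 kb), which also held SHISA2 and the ubiquitin ligase gene RNF6. The domain at chr16:49265001-50024000 (759 kb) held CBLN1, which organises synapses of the cerebellum, C16orf78 and ZNF423. Collagen COL5A1, the ficolins FCN1 and FCN2, which are recognition proteins of innate immunity, and OLFM1 lay in chr9:134720001-135462500 (742.5 kb). A calcium pump gene, ATP2B2, and the GABA transporter gene SLC6A11 lay in chr3:10393001-11126500 (733.5 kb). NPVF, which encodes neuropeptides, was the only protein-coding gene in chr7:25181001-25887000 (706 kb), where it took up 0.555% of the sequence. EIF4E3, GPR27 and PROK2 lay in chr3:71595501-72297000 (701.5 kb). The cover by any other mark in these 10 domains ran from 0.263% at COL5A1 to 2.63% at PROK2.

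The wide domains held fewer protein-coding genes per Mb than the rest of the autosomes. A gene was counted as inside where at least 50% of its span lay in wide domains. This held for 1169 of 19126 autosomal protein-coding genes, or 6.11%, the background for the counts of genes inside below. This background belongs to the limit of 200 kb and does not apply to shares given for other minimum widths. At least 50% of the span lay under H3K27me3, in domains of any width, for 4396 genes (23%). Any overlap with a wide domain held for 1394 genes (7.29%), and at least 50% of the span lay in domains of 50 to 200 kb for 2023 (10.6%). The genes inside wide domains gave 4.68 genes per Mb against 7.56 per Mb in the rest of the autosomes, a ratio of 0.619. With only the 300 domains filled to at least 95%, the ratio was 0.874. By sequence the difference was smaller: protein-coding gene spans took up 42.0% of the wide domains and 46.5% of the rest. Domains of 50 to 200 kb, the next class of H3K27me3 domains (4204 domains, 411.4 Mb), were almost as poor, at 4.92 genes per Mb. The density was 5.54 per Mb in domains of 200 to 250 kb and 3.0 per Mb in those of at least 500 kb. Genes of long non-coding RNA went the other way, at 8.08 per Mb inside against 6.65 per Mb outside. Hairpin genes of miRNAs stood at 0.721 per Mb inside, 0.679 per Mb outside and 0.382 per Mb in domains of 50 to 200 kb.

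Gene content differed widely among the domains. No protein-coding gene overlapped 164 domains (20.3%, 17.7 to 23.2), 1 gene overlapped 326, 2 genes 151 and more than 5 genes 36. Of the domains without a protein-coding gene, 14 also lacked a long non-coding RNA gene. A single gene spanned at least 90% of 96 domains and all of 54. RBFOX3, the gene of the neuronal nuclear antigen NeuN, spanned 90.1% of the widest of these (638 kb), and 97.8% of the gene lay under H3K27me3. CAMTA1 spanned all of a domain of 579 kb and TTC28 all of one of 554.5 kb. Other genes that spanned domains at 90% or more were the neuronal genes GABBR2, DSCAML1 and MYT1L and the receptor tyrosine kinase gene ALK. Long genes were frequent inside: 28.1% of the genes inside were longer than 100 kb, against 16.8% of all autosomal genes.

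The widest domain without a protein-coding gene, chr15:69471001-70043500, was 572.5 kb long. Another gene-free domain on chromosome 15, chr15:70101001-70434000, lay 57500 bp further along and had the highest H3K4me1 cover of all 808, at 8.29%. A gene-free domain of 516.5 kb, chr2:176346501-176863000, lay 85 kb from the domain of the HOXD genes. A gene-free domain of 549.5 kb, chr14:21826501-22376000, held variable segments of the T cell receptor alpha locus. The annotation lists such segments apart from protein-coding genes, and they were counted after this domain had been seen. Of 104 TRA segments, 43 lay inside wide domains. The counts were 29 of 46 for the immunoglobulin lambda locus, 11 of 49 for kappa and 8 of 64 for T cell receptor beta. They were 1 of 10 for delta, 0 of 11 for gamma and 0 of 83 for the immunoglobulin heavy chain locus. The 6.11% background covers protein-coding genes and does not apply to these segments. At least 50% of the span lay under H3K27me3 for 38 lambda, 21 kappa, 34 beta and 19 heavy chain segments. These counts were 43 for TRA, 1 for delta and 0 for gamma, as inside. The beta and heavy chain loci, with few or 0 segments inside, were thus not free of H3K27me3.

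The 5 domains with the most protein-coding genes held clusters of related genes. The type I keratin cluster on chromosome 17 filled a pair of domains, chr17:40651501-41066000 with 23 genes in 414.5 kb and chr17:41206001-41548000 with 22 genes in 342 kb. Keratin-associated proteins of the KRTAP10 group lay in chr21:44470001-44759500, with 17 genes in 289.5 kb. The kallikrein cluster with KLK3, which encodes prostate-specific antigen, lay in chr19:50809001-51092000 with 16 genes in 283 kb. The protocadherin alpha cluster filled chr5:140814501-141017000 with 15 genes in 202.5 kb; those genes share their last exons, so their spans overlap. At 64.3 genes per Mb, the keratin domain of 342 kb was far above the 4.68 per Mb of all wide domains.

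Among 26 gene lists, keratins and keratin-associated proteins had the highest share inside. Neighbours in a cluster are not independent, so the intervals given for clustered lists, here and below, are too narrow. Of 149 keratins and keratin-associated proteins 78 lay inside (52.3%, 44.4 to 60.2), in 5 domains, and 2 of them had H3K4me2 at an end and 0 had H3K4me3. KRT10, a keratin of the upper epidermis, was 1 of these 2 and also had H3K9ac and H3K36me3/H4K16ac at an end. Of 30 late cornified envelope and small proline-rich genes, which build the outer skin barrier, 12 lay inside (40%, 24.6 to 57.7) and 28 had at least 50% of their span under H3K27me3. LCE2A to LCE2D and LCE3A to LCE3E lay together in a domain of 223 kb. A domain of 396.5 kb nearby held SPRR2F, SPRR2G and LORICRIN with S100A8 and S100A9, the calprotectin genes of neutrophils, of which S100A9 had H3K4me2 and H3K4me1 at an end. With a minimum width of 300 kb, 30.2% of the keratin list lay inside.

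HOX genes, which set position along the body axis, were inside in 16 of 39 cases (41.0%, 27.1 to 56.6), in 3 domains. The domain of 255 kb at chr2:176006501-176261500 held all 9 HOXD genes and EVX2, each under H3K27me3 over 100% of its span. It was filled to 98.0% and had the highest H3K4me2 cover of all wide domains, 7.59%. Of its HOXD genes, HOXD1, HOXD8, HOXD9, HOXD11, HOXD12 and HOXD13 had H3K4me2 at an end, HOXD3, HOXD4 and HOXD10 did not, and H3K4me3 was at 0. HOXB7, HOXB8, HOXB9 and HOXB13 shared a domain of 224.5 kb, and HOXC11, HOXC12 and HOXC13 one of 221 kb. These 3 domains were all narrower than 300 kb.

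**Figure D2:**
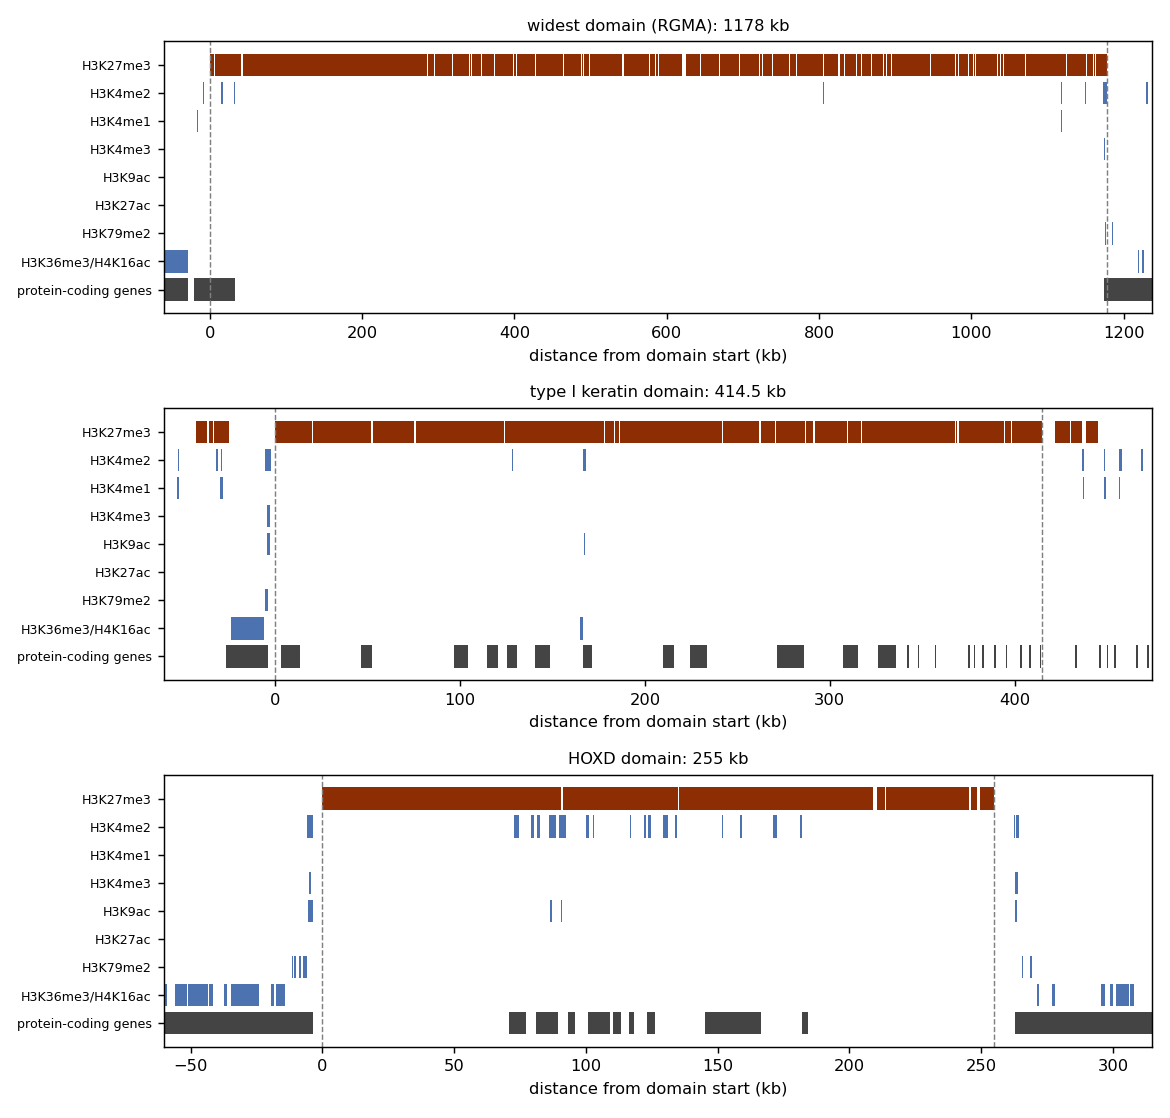
Maps of 3 domains: the widest (1178 kb, RGMA at its left end), the first of 2 type I keratin domains (414.5 kb) and the HOXD domain (255 kb). The x axis is the distance from the start of the domain in kb, dashed lines are its edges, red bars are H3K27me3 regions, blue bars regions of the other marks and grey bars protein-coding genes. H3K27me3 runs on between white gaps of at most 3 kb, the H3K4me2 of the HOXD domain (7.59% of its sequence) lies over the genes, and H3K36me3/H4K16ac lies outside the edges apart from 1 region beside KRT10.

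Developmental transcription factors lay in separate domains. Of 103, 28 were inside (27.2%, 19.5 to 36.5), in 27 domains, of which only that of DLX5 and DLX6 held a pair. Among the widest of these domains were those of TLX3 (906 kb), PAX7 (560.5 kb), a regulator of muscle stem cells, and FOXF1 (510.5 kb). Of the 28, 14 had H3K4me2 at an end, with FOXF1, PAX2, SOX1, SOX2 and NKX2-1 among them, and DLX6 and GATA6 had H3K4me3. With a minimum width of 300 kb the share inside was 11.7%, to which the 6.11% background does not apply. Of all 19126 autosomal protein-coding genes, 232 lay inside domains of 300 to 400 kb. Domains of 400 to 500 kb held 168 and wider ones 108. A further 39 of the 103 (37.9%) lay in domains of 50 to 200 kb.

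Lists of signalling and neuronal genes stood above 6.11%, by various margins. Voltage-gated and related ion channels were inside in 20 of 104 cases (19.2%, 12.8 to 27.8), with KCNA1, KCNA5 and KCNA6 in 1 domain and KCNA2, KCNA3 and KCNA10 in another. The list also holds channels that are not voltage-gated, KCNK1 and KCNJ6 among those inside. Growth factors of the FGF, WNT, BMP and hedgehog families were inside in 9 of 53 cases (17.0%, 9.20 to 29.2). FGF3, FGF4 and FGF19 shared a domain of 526 kb, and WNT6, WNT10A and IHH one of 304 kb. Collagens stood at 8 of 42 (19.0%, 9.98 to 33.3), with COL4A1 and COL4A2, the divergent genes of basement membrane collagen, in 1 domain of 396 kb. Receptors of glutamate, GABA, glycine and acetylcholine stood at 8 of 65 (12.3%, 6.37 to 22.5), with GABRP and GRIN2B in the widest domains. Synaptic adhesion genes (6 of 48), axon guidance genes (7 of 67, SLIT3 in the widest domain at 592.5 kb) and the cadherins CDH1, CDH3, CDH17 and PCDH8 (4 of 33) had intervals that included 6.11%.

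The interferons, serpins and beta-defensins that lay inside shared a single domain per family, whereas the lectins and cytochromes P450 inside were spread over 5 and 6 domains. Of 17 type I interferons 6 lay in 1 domain of 459 kb. Of these, IFNE had 11.0% of its span under H3K27me3, since it sits largely in a gap of the chain. Protocadherins of the clusters were inside in 15 of 53 cases, all of them of the alpha cluster. Serpins stood at 6 of 33 and beta-defensins at 6 of 39, each in a single domain, of 252 and 208 kb. C-type lectins and killer cell receptors stood at 11 of 57 (19.3%, 11.1 to 31.3), with KLRK1 and KLRC1 to KLRC4 in 1 domain. Cytochromes P450 stood at 8 of 55 (14.5%, 7.56 to 26.2), with CYP19A1, which makes oestrogens, among them. Members of such a cluster share a domain and are not independent, so these intervals are too narrow.

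Olfactory receptors and zinc finger genes, which also form large clusters, had shares near and below the background. Of 391 olfactory receptor genes 32 lay inside (8.18%, 5.86 to 11.3), whereas 112 lay in domains of 50 to 200 kb and 197 had at least 50% of their span under H3K27me3. The share was 13.8% with a minimum width of 150 kb and 2.56% with 300 kb, limits to which the 6.11% background does not apply. Of 497 zinc finger genes with ZNF symbols 7 lay inside (1.41%, 0.684 to 2.88), with ZNF831 and ZNF423 in the widest domains. At least 50% of the span lay under H3K27me3 for 120 of the 497 (24.1%), near the 23% of all autosomal protein-coding genes. TAS1R2 was the only 1 of 31 taste and vomeronasal receptors, SULT4A1 the only 1 of 34 glucuronosyltransferases and sulfotransferases, and H2AC1 and H2BC1, histone genes of the testis, the only 2 of 69 clustered histone genes. Of 39 haematopoietic transcription factors BCL11B, a factor of T cells, was the only 1 inside. Ribosomal proteins (0 of 77), proteasome subunits (0 of 38) and DNA replication genes (0 of 41) had none, which allows shares of up to 4.75%, 9.18% and 8.57% by the upper end of the interval.

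**Figure D3:**
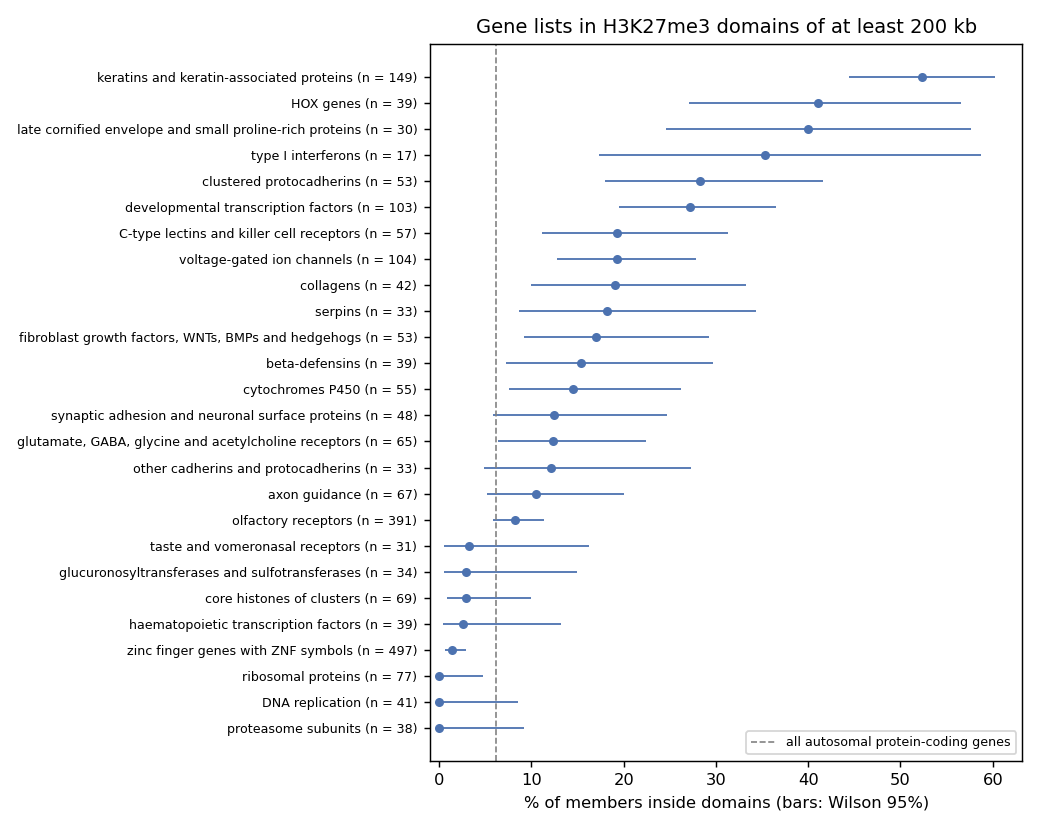
Share of the autosomal members of 26 gene lists (percent, points) with at least 50% of their span inside H3K27me3 domains of at least 200 kb, with Wilson 95% intervals (bars) and the share of all autosomal protein-coding genes, 6.11% (dashed line). Keratins, HOX genes and skin barrier genes stand at 40% or more, and ribosomal, proteasome and replication genes at 0. The bars treat genes as independent and are too narrow for clustered lists.

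Several miRNAs of other tissues lay in the wide domains. Of 33 tissue-restricted miRNA hairpins matched in the table from RefSeq, 6 were inside (18.2%, 8.61 to 34.4), beside 150 of 1461 hairpins in all (10.3%). Of 15 hairpins of blood and general growth 0 were inside. The first interval includes 10.3%, and both lists are small and were picked after their values were seen. No difference from all hairpins is therefore drawn from them. Mature sequences of the 6 hairpins inside follow as examples, 1 arm for each, with the seed (bases 2 to 8) in capitals. They are miR-10b and miR-196a, whose genes lie within HOX clusters, miR-375 of endocrine cells, miR-218 of motor neurons, which lies within the axon guidance gene SLIT3, miR-133b of muscle and miR-122 of liver. All 6 seeds differed from each other.
miR-10b-3p: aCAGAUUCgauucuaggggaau
miR-196a-5p: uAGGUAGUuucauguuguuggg
miR-375-3p: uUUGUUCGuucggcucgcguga
miR-218-5p: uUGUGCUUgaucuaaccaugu
miR-133b: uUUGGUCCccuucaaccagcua
miR-122-5p: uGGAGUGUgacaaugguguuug
The hairpin of miR-10b (mature sequence at chr2:176150368-176150389) lay in the HOXD domain and that of miR-196a (chr17:48632532-48632553) in the HOXB domain. The hairpin of miR-218 (chr5:168768211-168768231) lay in a domain of 592.5 kb and that of miR-375 (chr2:219001648-219001669) in the domain of 304 kb with IHH. Those of miR-122 (chr18:58451088-58451109) and miR-133b (chr6:52148988-52149009) lay in domains of 268.5 and 216.5 kb. None of the 6 hairpins had H3K4me2 within 1 kb.

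Other marks were scarce inside, and H3K79me2 and H3K36me3/H4K16ac had the lowest cover relative to the sequence outside. All other marks together covered 0.776% of the wide domains and 14.3% of the remaining autosomal sequence. H3K36me3/H4K16ac covered 0.0202% inside and 9.78% outside, a ratio of 0.00207, and H3K79me2 0.00312% and 2.78%, a ratio of 0.00112. H3K27ac had the least cover inside, 0.000481%, at a ratio of 0.00496, and the ratios were 0.0294 for H3K9ac, 0.0307 for H3K4me3 and 0.132 for H3K4me1. H3K4me2 stood highest, with 0.660% inside and 3.09% outside, a ratio of 0.214. Against domains of 50 to 200 kb the ratios lay much closer to 1: 0.919 for H3K4me1, 0.875 for H3K4me2, 0.665 for H3K4me3, 0.598 for H3K9ac, 0.599 for H3K27ac, 0.312 for H3K79me2 and 0.260 for H3K36me3/H4K16ac. All 7 were below 1.

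By domain, H3K4me2 was in 572 of 808 (70.8%), H3K4me1 in 317, H3K9ac in 113, H3K4me3 in 76, H3K36me3/H4K16ac in 11, H3K79me2 in 9 and H3K27ac in 4, and 204 held none of them. H3K4me2 was present in 60.2% of domains of 200 to 250 kb and in 91.5% of those of at least 500 kb, which have more room for a region. Its cover was 0.691% and 0.635% in these classes. The share with H3K4me2 was 43.3% among domains without a protein-coding gene and 77.8% among those with at least 1.

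The 1483 H3K4me2 regions that overlapped wide domains were short and mostly farther than 1 kb from an end of a protein-coding gene. Their median width was 900 bp, against 1200 bp for all autosomal H3K4me2 regions. Of them, 96.8% (95.8 to 97.6) overlapped H3K27me3, which regions of this width do almost anywhere in these domains. Per base, H3K4me2 covered 1.32% of the gap sequence and 0.619% of the sequence under H3K27me3, and 11.8% of its sequence lay in the 5.90% of the domains that is gap. An end of a protein-coding gene lay within 1 kb of 27.8% (25.6 to 30.2), against 35.6% of all H3K4me2 regions. H3K4me1 overlapped 29.5% (27.3 to 31.9) of them, against 55.8% of all, and H3K4me3 6.07%, against 27.8%.

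Regions of active marks were few enough to be placed one by one. The domain with the highest H3K36me3/H4K16ac cover, 7.98%, spanned 225.5 kb with CFDP1, BCAR1 and the chymotrypsinogen genes CTRB1 and CTRB2. The highest H3K79me2 cover, 1.37%, was in a domain of 241 kb, where 3 regions lay on IGF2BP1, which encodes an RNA-binding protein of fetal tissue. H3K9ac was highest, at 1.19%, in the domain of EGR3 and PEBP4 (238.5 kb), and H3K4me3, at 0.549%, in that of RNF150 and ZNF330 (318.5 kb). H3K27ac occurred as 4 regions of 300 bp each, on SLC28A3, on ANO1, between genes near PMCH in the domain of IGF1, and between genes 366660 bp from CDH4. None of the 4 overlapped H3K4me1, H3K4me2, H3K4me3 or H3K9ac. Of all 3198 autosomal H3K27ac regions, 96.8% overlapped H3K4me2 and 77.0% H3K9ac, and their median width was 600 bp.

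Most genes inside had none of the other marks at their ends. Of the 1169, 791 (67.7%, 64.9 to 70.3) had no other mark within 1 kb of an annotated end, against 27.5% of all autosomal protein-coding genes. H3K4me2 was at 356 (30.5%, 27.9 to 33.2; background 68.3%), H3K9ac at 69 (5.90%; background 55.6%), H3K4me1 at 58 (4.96%; background 23.3%) and H3K4me3 at 57 (4.88%, 3.78 to 6.27; background 51.8%). H3K36me3/H4K16ac was at 26 (2.22%; background 35%), H3K79me2 at 14 (1.20%; background 36.2%) and H3K27ac at 0 (background 6.4%). H3K4me2 without H3K4me3 was at 299 (25.6%, 23.2 to 28.2), above its background of 16.6%. This share depends on how many genes lack H3K4me3, which was far more of the genes inside than of all genes. Among genes without H3K4me3 only, H3K4me2 was less frequent inside than overall. Genes in domains of 50 to 200 kb were similar, with H3K4me2 at 33.5% (31.5 to 35.6), H3K4me3 at 6.38% (5.39 to 7.53) and no other mark at 64.3% (62.2 to 66.4).

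Genes inside with H3K4me3 mostly reached across an edge. Of the 57, 40 were not wholly inside. Among the 894 genes wholly inside, H3K4me3 was at 17 (1.90%, 1.19 to 3.02), H3K79me2 at 2 and H3K36me3/H4K16ac at 1. Those 17 included the developmental regulators FOXD1, DLX6, GATA6 and HEY1, the T cell factor BCL11B and the netrin receptor gene NEO1, and these names were picked after their values were seen. H3K4me3, H3K9ac and H3K79me2 together were at 13 genes inside (1.11%, against 35.1% of all), of which RGL1 and FOXD1 were wholly inside.

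Promoter windows with H3K4me2 were more often CpG-rich than those without. RefSeq promoter windows (250 bases before to 50 after the start) were matched for 906 of 1121 genes inside (80.8%) outside chromosome 8, for which the table holds none. A window counted as CpG-rich with a GC content of at least 50% and an observed over expected CpG of at least 0.6. This held for 39.1% (35.9 to 42.3) of the windows inside and 64.0% (63.2 to 64.7) of all autosomal windows. Of windows inside with H3K4me2, 82.7% (77.1 to 87.2) were CpG-rich, and of those without it 25.6% (22.5 to 29.0). Over all autosomal windows these shares were 83.3% and 35.3%. Read the other way, 50% (44.8 to 55.2) of CpG-rich windows inside had H3K4me2, against 77.7% of all CpG-rich windows, and 6.70% (4.90 to 9.10) of the others, against 27.6%. H3K4me3 was on 6.21% of the CpG-rich windows inside and on 63.5% of all CpG-rich windows.

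The letters TATAAA, the core of the TATA box, were searched on both strands, so a match need not read in the gene's direction. They were in 20.4% (17.9 to 23.2) of windows inside and 9.71% (9.25 to 10.2) of all windows. They were in 24.3% of windows inside without H3K4me2 and 7.94% of those with it. Over all autosomal windows these shares were 16.3% and 5.22%, so a difference by H3K4me2 was not particular to the wide domains. In genes in domains of 50 to 200 kb, 79% matched a window, under the 80% needed, and no promoter value is given for them.

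**Figure D4:**
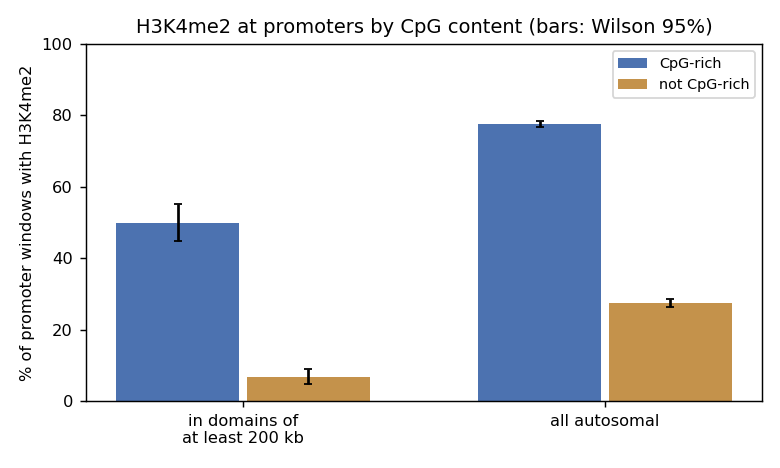
Share of RefSeq promoter windows (percent) with H3K4me2 among CpG-rich (blue) and other (orange) windows, for genes in H3K27me3 domains of at least 200 kb and for all autosomal genes; bars are Wilson 95% intervals. CpG-rich windows stand above the others in both sets, at 50% against 6.70% inside and 77.7% against 27.6% overall.

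Other marks were found near a minority of domain edges. Each of the 808 domains has 2 edges, 1616 in all, and 35.9% (33.6 to 38.3) of these lay within the span of a protein-coding gene, while 4.64% (3.72 to 5.78) lay within 1 kb of a gene end. In the 10 kb outside an edge, any other mark was found at 35.1% (32.8 to 37.4), against 26.0% (25 to 26.9) at edges of domains of 50 to 200 kb. H3K4me2 was found there at 27.6% (25.5 to 29.8) against 21.1% (20.2 to 22), and H3K36me3/H4K16ac at 12.1% (10.6 to 13.7) against 8.08% (7.51 to 8.68). H3K79me2 stood at 8.35% (7.10 to 9.80) against 4.89% (4.45 to 5.37), and H3K4me3 at 11.1% (9.70 to 12.8) against 7.89% (7.33 to 8.48). The intervals of these 5 pairs did not overlap, but they reflect counting alone and treat edges as independent. Edges are not independent, since 42 spacers between neighbouring wide domains were 10 kb or shorter, so that flanks shared sequence. Another H3K27me3 region lay in 36.8% of the flanks of both classes.

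The marks differed in where outside the edge they were highest. H3K4me2 covered 7.11% of the first 5 kb outside, 3.34% at 10 to 15 kb and 1.06% of the first 5 kb inside. H3K4me3 and H3K9ac likewise stood highest in the first 5 kb, at 1.82% and 2.5%. H3K36me3/H4K16ac was low there, at 2.18%, and stood at 11.4% at 15 to 20 kb. H3K79me2 was highest at 5 to 10 kb, at 3.17%. H3K27me3 itself covered 1.77% of the first 5 kb outside, as the merging sets, and 48.3% at 20 to 25 kb, since other H3K27me3 regions lie nearby.

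**Figure D5:**
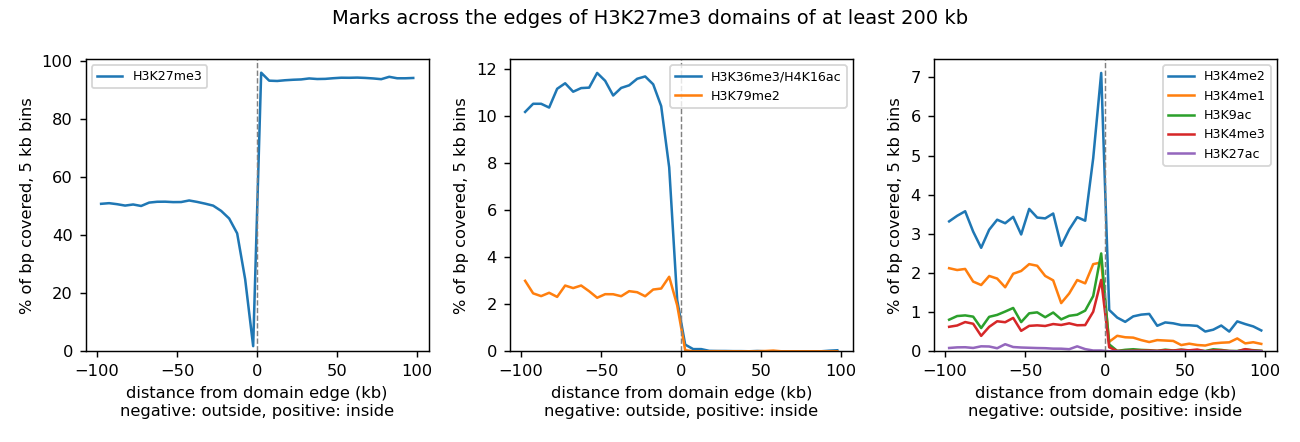
Share of sequence (percent) covered by each mark in 5 kb bins from 100 kb outside to 100 kb inside the 1616 edges of H3K27me3 domains of at least 200 kb. The dashed line is the edge; H3K4me2 peaks at 7.11% in the first bin outside, H3K36me3/H4K16ac rises to over 11% farther out, and both are low inside.

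Many wide domains had another close by. The nearest wide domain lay within 50 kb for 144, within 100 kb for 185 and within 500 kb for 402 of the 808. Between neighbours there were 97 spacers of up to 100 kb, with a median of 13.5 kb. Of these, 61 (62.9%, 53.0 to 71.8) held none of the other marks, 36 held H3K4me2, 19 H3K4me3, 17 H3K36me3/H4K16ac, 14 H3K79me2 and 0 H3K27ac. H3K36me3/H4K16ac covered 14.9% of the spacer sequence, against 9.78% of all sequence outside the wide domains.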

How the data were processed

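Intervals called per mark were deposited by the authors in 1 list, with no count, score or signal, so depth is unknown and precision cannot be judged from reads. Per the submitters' processing notes, the tools were cutadapt, Bowtie2 and MACS and the build GRCh38. Their versions and thresholds, and the input for each call, were not given in the sources used here. H3K27me3 intervals start on a 500 bp grid and 84.4% are 1000 bp long. Starts that follow both 0-based and 1-based counting were brought to 1 convention. Intervals under 1 label that matched no sample were not used. Genes, promoters and miRNAs came from RefSeq tables of GRCh38.

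Domains, coverage and gene overlaps were computed in Python 3.11.15 with numpy 2.4.6 and pandas 2.3.3, and the merging and coverage functions were tested on simulated intervals. No genome was used. Shares have Wilson 95% intervals (scipy 1.17.1). Marks at genes were counted within 1 kb of either annotated end, by at least 1 bp. Domains of 50 to 200 kb served as the nearest comparison.

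The members and gene lists were chosen with earlier results of these data known. Genes were named by rule: the 10 widest domains, those beside the 200 kb limit, those with the most genes or the highest cover of a mark, and up to 4 members per list in the widest domains; names outside the rule were picked after their values were seen, as were the genes that span a domain, the miRNA lists and the receptor segments. Some items covered by these rules are not reported here.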

Additional observations from a re-analysis of the deposited data

How the results depend on the processing

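Of 143 values under an alternative, 88 moved little and 55 moved, and 0 turned around. How many domains there are rests on the merging. Gaps of 0 kb left 3 domains on 0.0246% of the sequence, gaps of up to 1 kb 335 on 3.54%, and gaps of up to 10 kb 1228 on 16.8%. A minimum of 150 kb gave 1394, one of 300 kb gave 303 on 4.87%, and a fill of at least 95% gave 300 on 3.69%. The ratio of H3K4me2 cover inside to outside was 0.628 in the 3 uninterrupted domains and 0.875 against domains of 50 to 200 kb. For H3K36me3/H4K16ac it was 0 in the uninterrupted domains, 0.000757 at 300 kb or more and 0.260 against domains of 50 to 200 kb. At 300 kb or more the share inside was 0% for HOX genes and 30.2% for keratins. It was 11.7% for developmental transcription factors and 2.56% for olfactory receptors, which stood at 13.8% at 150 kb or more. The 6.11% background belongs to the limit of 200 kb and does not apply to these shares. H3K4me2 was at 24.0% of genes wholly inside, at 34% with windows of 2.5 kb and at 27.8% with an overlap of at least 500 bp. Flanks of 5 and 20 kb held H3K36me3/H4K16ac at 4.89% and 19.3% of edges. With an observed over expected CpG of at least 0.75, 30.2% of windows inside were CpG-rich. Under the 12 settings in which it was computed, the gene density ratio ran from 0.425 (gaps of 0 kb) to 0.874 (fill of at least 95%). The cause of these moves was not tested beyond what each setting itself changes.

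Each mark has 1 library and no depth, so a missing interval does not show that a mark is absent. By the labels H3K27me3 has an input of its own. H3K9ac, H3K4me3 and H3K79me2 share another, and H3K27ac, H3K4me1, H3K4me2, H3K36me3 and H4K16ac share the last. A difference between H3K27me3 and the other marks, or between marks of these last groups, therefore cannot be told apart from a difference between inputs. No paired analysis was possible because each mark has 1 library.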
